A study of Homo sapiens with 16 samples.

Results

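A set of 10 cyclin and cyclin-dependent kinase (CDK) genes was followed in RNA-seq counts of mesenchymal stem cells (MSCs): CCND1, CCND2 and CCND3, which encode the D-type cyclins, CCNE1 and CCNE2 for the E-type cyclins, CCNA2 for cyclin A2, CCNB1 and CCNB2 for the B-type cyclins, and the kinases CDK1 and CDK2. The members were chosen by symbol and matched through their Ensembl identifiers, and all 10 were found among the 60649 genes of the count table and passed the filter on low counts, which 19103 genes passed. Poly(A) RNA of ASC52telo, 1 line of adipose MSCs immortalized with telomerase, was sequenced in 16 libraries, 4 biological replicates from each of 4 groups. MmC-/GDF11- cells received neither agent, and MmC-/GDF11+ cells received recombinant growth differentiation factor 11 (GDF11) at 10 ng/mL. MmC+/GDF11- cells were exposed near confluence to the DNA-alkylating agent mitomycin C (MmC) at 1.5 µg/mL for 18 h to make them senescent, and MmC+/GDF11+ cells received MmC and then GDF11. All cells, genotype label wt, were collected after 10 days of culture with or without GDF11, and cells without MmC are called young here although they are the same immortalized line.

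Cyclins are the regulatory subunits that switch on CDKs, and each class acts in its own part of the cell cycle. D-type cyclins answer growth signals and work with CDK4 and CDK6 in G1, E-type cyclins and then cyclin A2 work with CDK2 at the entry to and through S phase, and B-type cyclins drive mitosis with CDK1. Senescent cells have left the cycle for good, and cyclin D1 is known to accumulate in many of them.

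The genes of cyclin A2, the B-type cyclins and CDK1 are textbook targets of a shared promoter layout, in which CCAAT boxes, bound by NF-Y, stand upstream of a cell cycle genes homology region (CHR), where the DREAM and B-MYB-FOXM1 complexes bind. Promoters from RefSeq (GRCh38.p14) were at hand for 6 of the 10 members: CCNA2, CCNB1, CCNB2, CDK1, CCND3 and CCNE1. The 200 bases before the RefSeq start are shown for the 4 members that fell after MmC and for CCNE1, which did not pass the test, in the gene's direction, with matches to the CCAAT box, the CHR and its related letters, spelled out after them, in capitals. The capitals in CCNA2 include 1 CCAAT box that reads ATTGG, since it lies on the other strand.
CCNA2 (chr4:121823884-121824083, minus strand): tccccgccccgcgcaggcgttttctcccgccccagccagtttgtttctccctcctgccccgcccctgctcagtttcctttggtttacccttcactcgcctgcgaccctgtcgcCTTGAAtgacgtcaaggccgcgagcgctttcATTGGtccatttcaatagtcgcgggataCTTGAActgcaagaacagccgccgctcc
CCNB1 (chr5:69166950-69167149, plus strand): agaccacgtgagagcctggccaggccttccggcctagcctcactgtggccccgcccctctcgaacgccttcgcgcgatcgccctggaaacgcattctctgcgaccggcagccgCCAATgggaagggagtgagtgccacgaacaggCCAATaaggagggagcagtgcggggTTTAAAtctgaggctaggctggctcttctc
CCNB2 (chr15:59104946-59105145, plus strand): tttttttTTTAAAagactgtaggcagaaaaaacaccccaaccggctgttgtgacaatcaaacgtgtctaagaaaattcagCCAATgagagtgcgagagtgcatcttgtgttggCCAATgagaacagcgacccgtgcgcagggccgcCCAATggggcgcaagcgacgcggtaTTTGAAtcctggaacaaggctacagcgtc
CDK1 (chr10:60778131-60778330, plus strand): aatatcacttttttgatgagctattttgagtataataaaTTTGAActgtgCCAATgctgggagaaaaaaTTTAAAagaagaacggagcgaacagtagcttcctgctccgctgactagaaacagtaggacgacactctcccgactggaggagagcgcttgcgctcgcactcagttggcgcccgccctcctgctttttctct
CCNE1 (chr19:29811791-29811990, plus strand): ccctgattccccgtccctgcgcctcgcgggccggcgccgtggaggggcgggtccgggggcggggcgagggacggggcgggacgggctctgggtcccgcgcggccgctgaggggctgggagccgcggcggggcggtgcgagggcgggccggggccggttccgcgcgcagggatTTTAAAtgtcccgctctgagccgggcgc
In the window from 250 bases before to 50 bases after the start, on both strands, CCAAT was found 1 time in CCNA2, 2 times in CCNB1, 4 times in CCNB2 and 1 time in CDK1, and in neither CCND3 nor CCNE1. It was present in 34.6% of 35116 RefSeq promoters of the same length. The searched CHR letters, TTTGAA or TTCGAA, were found in CCNB2 at position -29 and in CDK1 at -161, counted from the start. They were present in 16.4% of all promoters. In CCNB2 they lie downstream of the nearest CCAAT box, at -54. In CDK1 they lie upstream of the only CCAAT box, at -150, the reverse of the layout described above. The related letters CTTGAA or TTTAAA, which were added to the search after these sequences had been seen, were found in CCNA2 at -87 and -28, in CCNB1 at -30, in CCNB2 at -193, in CDK1 at -131 and in CCNE1 at -28, and in 21.3% of all promoters. TTTAAA reads alike on both strands, and none of the matches shared bases with a match to another motif. An E2F motif (TTTCCCGC, TTTCGCGC, TTTGCCGC or TTTGGCGC) was found in CDK1 alone, at +20, and in 3.31% of all promoters. The matches describe these letters only. CCND1, CCND2, CCNE2 and CDK2 had no entry.

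Total counts lay between 71275337 and 144204979 per library, and values below are counts per 1000000 counts of the TMM-scaled library (CPM), in the order of replicates 1 to 4 of a group. The summed CPM of 6 MSC markers lay between 5090 and 6698 in all libraries, against at most 21.8 for the hematopoietic, 21.8 for the endothelial, 2.49 for the adipocyte and 1.13 for the epithelial markers, and HLA-DRA, a hematopoietic marker, was at 0 throughout. The sums held markers that went opposite ways from MmC-/GDF11- to MmC+/GDF11-. Mean CPM went from 1113 to 746 for THY1, from 371 to 231 for PDGFRB and from 1891 to 2413 for ITGB1. NT5E and CD44 also had higher means after MmC, and ENG a lower one. Among endothelial markers PECAM1 went from 5.96 to 14.4 and CDH5 from 2.42 to 0.850. The libraries of replicate 1 stood apart for the members: in both MmC+ groups replicate 1 was the lowest of 4 for 7 members and the highest for the other 3, and in MmC-/GDF11- it was the lowest for 7 and the highest for 1. In MmC-/GDF11+ it was the lowest for 3 and the highest for 3, so it did not stand apart there in the same way. Many of the members vary together, so these counts are not independent, and no share over all genes is given for them. Results are therefore given with and without replicate 1 where it matters. All libraries carry the same run label, so no sequencing batch was at hand to compare.

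**Figure D1:**
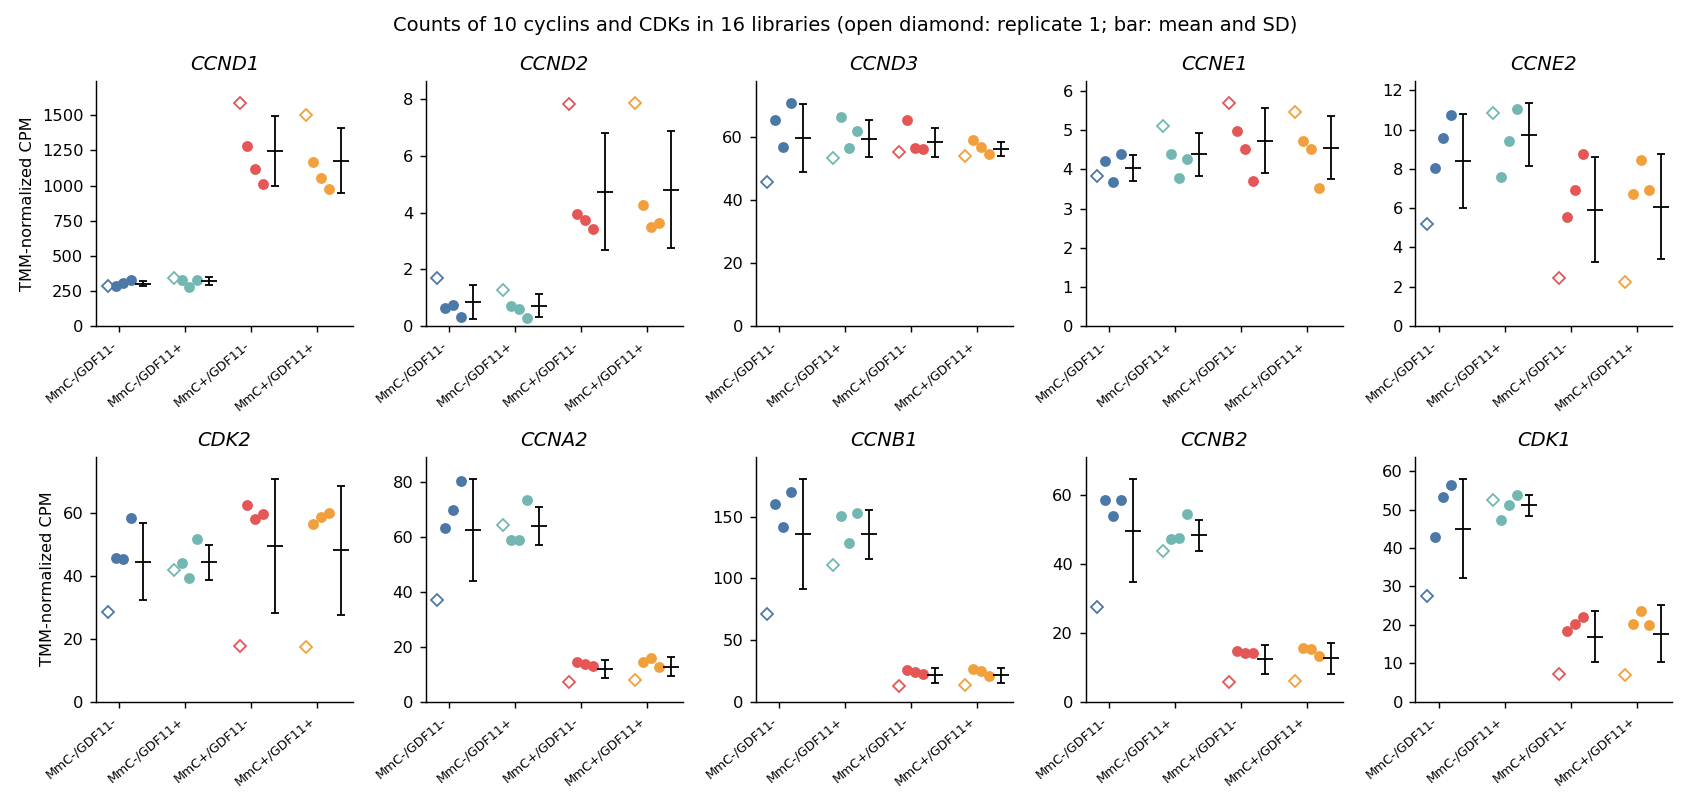
TMM-normalized CPM (vertical axis, linear from 0) of each member in the 16 libraries by group, with an open diamond for replicate 1 and a bar for the mean and SD of 4 libraries. In CCND1 and CCND2 all MmC+ points lie above all MmC- points, in CCNA2, CCNB1, CCNB2 and CDK1 all lie below, and in the other 4 genes the points overlap.

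The first question was what MmC did to the members. CCND1 and CCND2 rose and the A- and B-type cyclins and CDK1 fell, with and without GDF11, whereas CCND3, both E-type cyclins and CDK2 did not pass the test. By edgeR's quasi-likelihood test with Benjamini-Hochberg adjustment over all 19103 genes, 2 of the 10 members were higher and 4 lower in MmC+/GDF11- than in MmC-/GDF11-, where 22.9% of all genes were called higher and 22.4% lower (45.3% in all). With GDF11 the count was again 2 higher and 4 lower, against 23.4% and 23.3% of all genes (46.7% in all). All 6 had no overlap between the 4 and 4 libraries in either comparison, which held for 37.3% of all genes without and 41.5% with GDF11. The members' median log2 fold change was -0.27 without and -0.38 with GDF11, against -0.01 for all genes in both. In bulk RNA, fewer cells in a phase of the cycle and less RNA per cell cannot be told apart.

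CCND1 (ENSG00000110092.4, chr11:69641156-69654474, hg38), the gene of cyclin D1, had 286, 284, 306 and 326 CPM in MmC-/GDF11- and 339.7, 325, 276 and 328 in MmC-/GDF11+. It had 1586, 1279, 1115 and 1014 CPM in MmC+/GDF11- and 1502, 1169, 1054 and 976 in MmC+/GDF11+. Every MmC+ library stood far above every MmC- library, and replicate 1 was the highest in both MmC+ groups. CCND1 was 4.16-fold higher after MmC without GDF11, a log2 fold change of 2.06 ± 0.15 (SE), with an adjusted p of 1.09e-07 by edgeR. With GDF11 it was 3.70-fold higher, at 1.89 ± 0.15 and an adjusted p of 2.19e-07. In its place among all 19103 genes, 914 genes had a larger rise without GDF11. Of its exonic bases, 10.4% are shared with LTO1 on the opposite strand.

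CCND2 (ENSG00000118971.9, chr12:4269771-4305353, hg38), for cyclin D2, was the lowest member per kilobase of exon in all 4 groups, with 25 to 129 reads in the MmC- libraries and 298 to 772 in the MmC+ libraries. It had 1.68, 0.621, 0.747 and 0.318 CPM in MmC-/GDF11- and 1.28, 0.684, 0.601 and 0.279 in MmC-/GDF11+. After MmC it had 7.82, 3.95, 3.75 and 3.43 CPM without and 7.86, 4.27, 3.49 and 3.64 with GDF11. Replicate 1 was the highest in all 4 groups, and the lowest MmC+ library still stood above the highest MmC- library. The gene was 5.69-fold higher without GDF11 (log2 fold change 2.51 ± 0.50, edgeR adjusted p = 0.000919) and 6.80-fold higher with it (2.77 ± 0.51, adjusted p = 0.000486). Of its exonic bases, 12.5% are shared with a protein-coding gene model on the same strand, ENSG00000285901, and 2.03% with its antisense transcript CCND2-AS1.

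CCND3 (ENSG00000112576.13, chr6:41934934-42050357, hg38), for cyclin D3, had 45.9, 65.5, 56.9 and 70.8 CPM in MmC-/GDF11- and 53.3, 66.6, 56.5 and 62.1 in MmC-/GDF11+. It had 55.2, 65.4, 56.7 and 56.2 CPM in MmC+/GDF11- and 54.0, 59.3, 57.0 and 54.8 in MmC+/GDF11+. The groups overlapped throughout. The log2 fold change for MmC was -0.04 ± 0.11 without GDF11 (95% interval -0.29 to 0.22) and -0.08 ± 0.11 with it (-0.33 to 0.17), with edgeR adjusted p of 0.827 and 0.583. The intervals lie far below the changes of the other 2 D-type genes.

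CCNA2 (ENSG00000145386.11, chr4:121816444-121823883, hg38), whose product cyclin A2 serves CDK2 in S phase and CDK1 in G2, had 36.9, 63.2, 69.8 and 80.2 CPM in MmC-/GDF11- and 64.4, 58.7, 58.7 and 73.3 in MmC-/GDF11+. It had 7.14, 14.3, 13.5 and 12.9 CPM in MmC+/GDF11- and 7.92, 14.6, 15.7 and 12.6 in MmC+/GDF11+. The MmC+ libraries lay below all MmC- libraries, and replicate 1 was the lowest of both MmC+ groups. The gene was 5.23-fold lower after MmC without GDF11 (log2 fold change -2.39 ± 0.26, edgeR adjusted p = 5.43e-06) and 5.02-fold lower with GDF11 (-2.33 ± 0.26, adjusted p = 6.76e-06). EXOSC9 on the opposite strand shares 9.24% of its exonic bases.

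CCNB1 (ENSG00000134057.15, chr5:69167135-69178245, hg38), for the mitotic cyclin B1, carries the promoter with 2 CCAAT boxes shown above and had the largest fall of the members. It had 71, 161, 142 and 170.3 CPM in MmC-/GDF11- and 111, 151, 129 and 153 in MmC-/GDF11+. After MmC it had 12.8, 25.6, 24.2 and 22.0 CPM without and 13.1, 26.6, 25 and 21.1 with GDF11. Replicate 1 was the lowest of all 4 groups, and no library of one arm reached the other. CCNB1 was 6.43-fold lower without GDF11 (log2 fold change -2.68 ± 0.29, edgeR adjusted p = 4.89e-06) and 6.33-fold lower with it (-2.66 ± 0.29, adjusted p = 5.43e-06). Only 81 of the genes tested fell by more without GDF11.

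CCNB2 (ENSG00000157456.8, chr15:59105126-59125045, hg38), for cyclin B2, had 27.3, 58.5, 53.9 and 58.6 CPM in MmC-/GDF11- and 43.8, 47.2, 47.5 and 54.4 in MmC-/GDF11+. It had 5.78, 14.8, 14.2 and 14.0 CPM in MmC+/GDF11- and 6.03, 15.6, 15.3 and 13.2 in MmC+/GDF11+. Replicate 1 was again the lowest of each group, by more than the other 3 libraries differed among themselves in MmC-/GDF11- and in both MmC+ groups. The gene was 4.07-fold lower without GDF11 (log2 fold change -2.02 ± 0.33, edgeR adjusted p = 0.000169) and 3.84-fold lower with it (-1.94 ± 0.33, adjusted p = 0.000231).

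CDK1 (ENSG00000170312.16, chr10:60778331-60794852, hg38), the kinase of the B-type cyclins, passed as lower with a smaller fold than they had. It had 27.6, 42.9, 53.2 and 56.4 CPM in MmC-/GDF11- and 52.5, 47.3, 51.2 and 53.7 in MmC-/GDF11+. After MmC it had 7.09, 18.3, 20.3 and 21.9 CPM without and 6.89, 20.3, 23.6 and 19.9 with GDF11. The arms did not overlap, although replicate 1 of MmC-/GDF11-, at 27.6, came near the highest MmC+ library, at 23.6. CDK1 was 2.67-fold lower without GDF11 (log2 fold change -1.42 ± 0.36, edgeR adjusted p = 0.00487) and 2.89-fold lower with it (-1.53 ± 0.36, adjusted p = 0.00281). Whether its fall differs from that of CCNB1 was not tested.

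**Figure D2:**
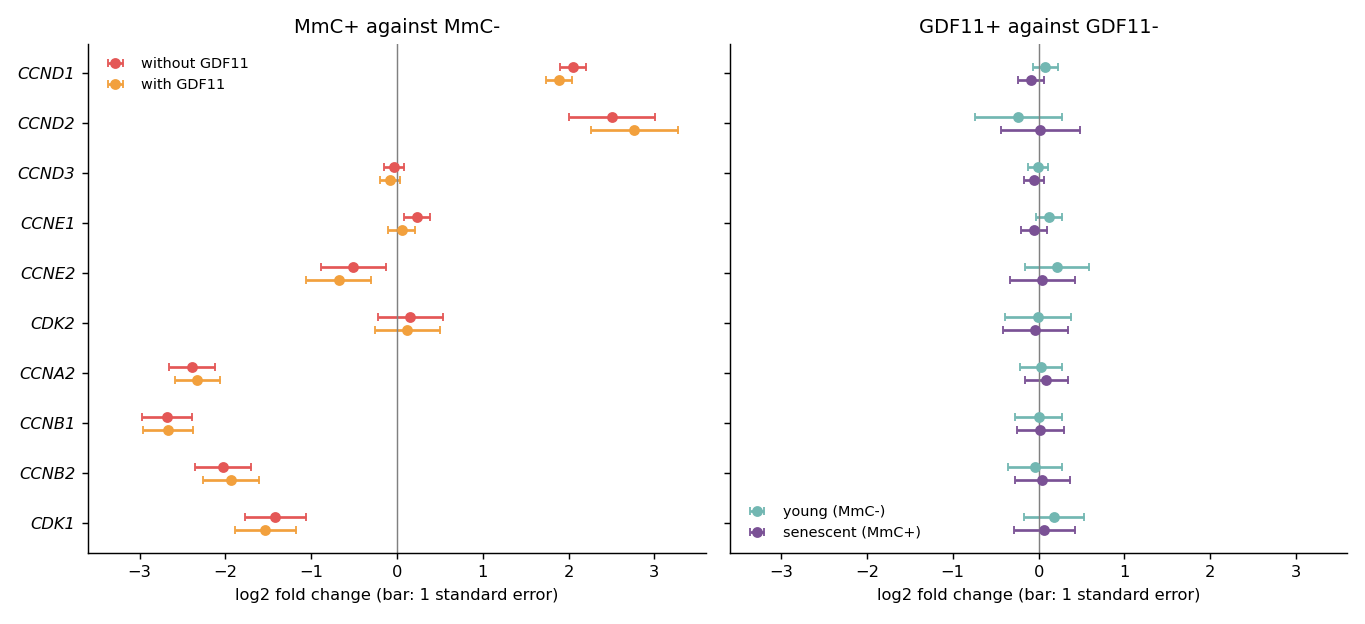
Log2 fold change (horizontal axis) of each member with 1 standard error, derived from the F statistic of edgeR's test. MmC without and with GDF11 is on the left, and GDF11 in young and in senescent MSCs on the right. For MmC the points run from -2.68 for CCNB1 to 2.77 for CCND2, and for GDF11 all lie between -0.24 and 0.21.

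CCNE1 (ENSG00000105173.14, chr19:29811991-29824312, hg38), for cyclin E1, had 3.83, 4.21, 3.67 and 4.4 CPM in MmC-/GDF11- and 5.11, 4.4, 3.77 and 4.27 in MmC-/GDF11+. It had 5.69, 4.99, 4.53 and 3.71 CPM in MmC+/GDF11- and 5.47, 4.73, 4.51 and 3.52 in MmC+/GDF11+. The groups overlapped, at a log2 fold change for MmC of 0.23 ± 0.15 without and 0.05 ± 0.15 with GDF11 (edgeR adjusted p = 0.237 and 0.796).

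CCNE2 (ENSG00000175305.18), for cyclin E2, had 5.21, 8.06, 9.55 and 10.7 CPM in MmC-/GDF11- and 10.9, 7.60, 9.43 and 11.1 in MmC-/GDF11+. It had 2.44, 5.54, 6.93 and 8.75 CPM in MmC+/GDF11- and 2.26, 6.69, 8.43 and 6.90 in MmC+/GDF11+. Replicate 1 of both MmC+ groups was the lowest, and the other libraries of the arms overlapped. The log2 fold change for MmC was -0.51 ± 0.38 without GDF11 (95% interval -1.33 to 0.32) and -0.68 ± 0.38 with it (-1.50 to 0.15), and neither passed (edgeR adjusted p = 0.293 and 0.156). With GDF11 it passed only when the replicate number was added as a block, at -0.83 and an adjusted p of 0.0313. Of its exonic bases, 37.1% are shared with INTS8 on the opposite strand. The library kit marks strand, but the strand setting of the counting is not given in the sources used here, so reads of INTS8 may be among these counts.

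CDK2 (ENSG00000123374.11, chr12:55966781-55972789, hg38), the kinase of the E-type cyclins and cyclin A2, did not pass in either comparison. It had 28.5, 45.6, 45.4 and 58.6 CPM in MmC-/GDF11- and 41.9, 44.3, 39.3 and 51.9 in MmC-/GDF11+. After MmC it had 17.8, 62.6, 58.3 and 59.8 CPM without and 17.5, 56.5, 58.9 and 60.1 with GDF11. In each MmC+ group replicate 1 was the single low library, while the other 3 lay above 7 of the 8 MmC- libraries. The log2 fold change was 0.16 ± 0.38 without GDF11 (95% interval -0.67 to 0.98) and 0.12 ± 0.38 with it (-0.70 to 0.95), with edgeR adjusted p of 0.765 and 0.814. Without replicate 1 in all groups it was 0.27 without GDF11 (adjusted p = 0.0623) and 0.38 with GDF11, where it passed as higher (adjusted p = 0.0138). ENSG00000258554, a long non-coding gene on the opposite strand, shares 14.5% of its exonic bases.

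The same values were also set side by side by replicate number, whether or not a comparison was taken as paired. For CCNB1 the log2 ratio of MmC+ to MmC- CPM was -2.48, -2.65, -2.55 and -2.95 in replicates 1 to 4 without GDF11 and -3.09, -2.51, -2.36 and -2.86 with GDF11. For CDK2 the ratios were -0.68, 0.46, 0.36 and 0.03 in cells not given GDF11, and -1.26, 0.35, 0.59 and 0.21 in cells given it. CCNB1 would be lower in any pairing of libraries, since its arms do not overlap, so only the sizes of its ratios add to the above. CDK2 was lower in pair 1 and higher in pairs 2, 3 and 4. The 6 members that passed kept their call and direction under all 25 alternatives in both comparisons, leaving out replicate 1 included. Of these alternatives, 16 left out a single library, in part from groups not compared. Without replicate 1 in all groups 2 members were called higher and 4 lower without GDF11 and 3 higher and 4 lower with it, against 51.7% and 52.6% of all genes called, and the CDK1 change was -1.33 without and -1.25 with GDF11.

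**Figure D3:**
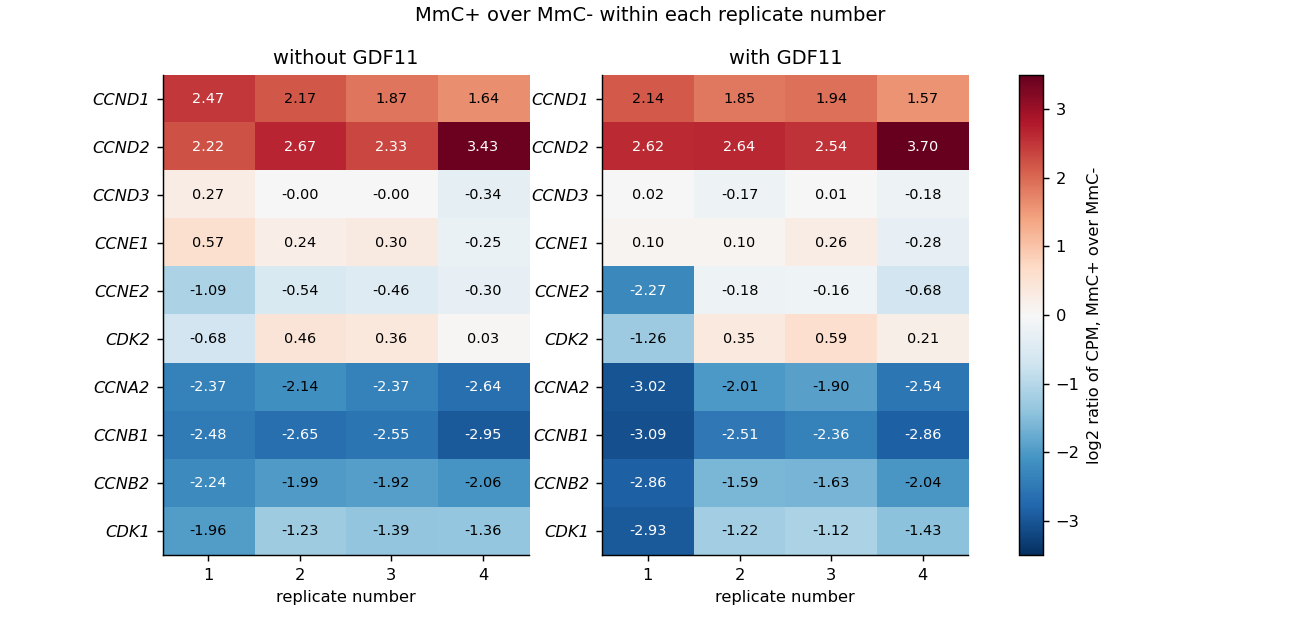
Log2 ratio of CPM in the MmC+ library to the MmC- library of the same replicate number (columns) for each member (rows), without GDF11 on the left and with GDF11 on the right, from blue for lower to red for higher. CCND1 and CCND2 are red and CCNA2, CCNB1, CCNB2 and CDK1 blue in all 8 columns. Any pairing of libraries would give these colors, since the arms of these genes do not overlap. CDK2 is blue in the column of replicate 1 alone.

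The second question was how G1 cyclins stood against S and G2/M cyclins. Levels were compared between genes as CPM per kilobase of exon, to lessen the effect of gene length on read number. The length joins all annotated exons of a gene and can exceed that of the transcripts present. The order between genes and shares of sums are therefore approximate. In MmC-/GDF11- CCND1 came first at 63.1 ± 4.13 (SD, n = 4), followed by CCNB1 at 55.9 ± 18.5, CCNA2 at 22.8 ± 6.73, CCNB2 at 18.0 ± 5.45, CDK1 at 11.5 ± 3.32, CDK2 at 11.5 ± 3.17 and CCND3 at 10.4 ± 1.89. Each of these overlapped the next in its range over libraries, and CCND3 was clear of the genes below it. CCNE2 at 1.91 ± 0.543 and CCNE1 at 1.64 ± 0.136 followed and overlapped each other, and CCND2 at 0.105 ± 0.0733 was last, without overlap. MmC-/GDF11+ had the same order, with CCNB1, CCNA2, CCNB2 and CDK1 clear of each other there.

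In MmC+/GDF11- CCND1 stood alone at 262 ± 52.6 CPM per kilobase, with no overlap to the next gene, CDK2 at 12.8 ± 5.48. CCND3 now followed at 10.1 ± 0.822, and CCNB1, next to CCND1 in the young cells, came after it at 8.69 ± 2.37. CCNB2 at 4.43 ± 1.56, CCNA2 at 4.35 ± 1.19 and CDK1 at 4.32 ± 1.72 were close to each other, and CCNE1 at 1.92 ± 0.338, CCNE2 at 1.35 ± 0.606 and CCND2 at 0.593 ± 0.259 came last. From CDK2 downwards each gene overlapped the next. In MmC+/GDF11+ the order differed only in that CCNA2 stood before CCNB2.

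**Figure D4:**
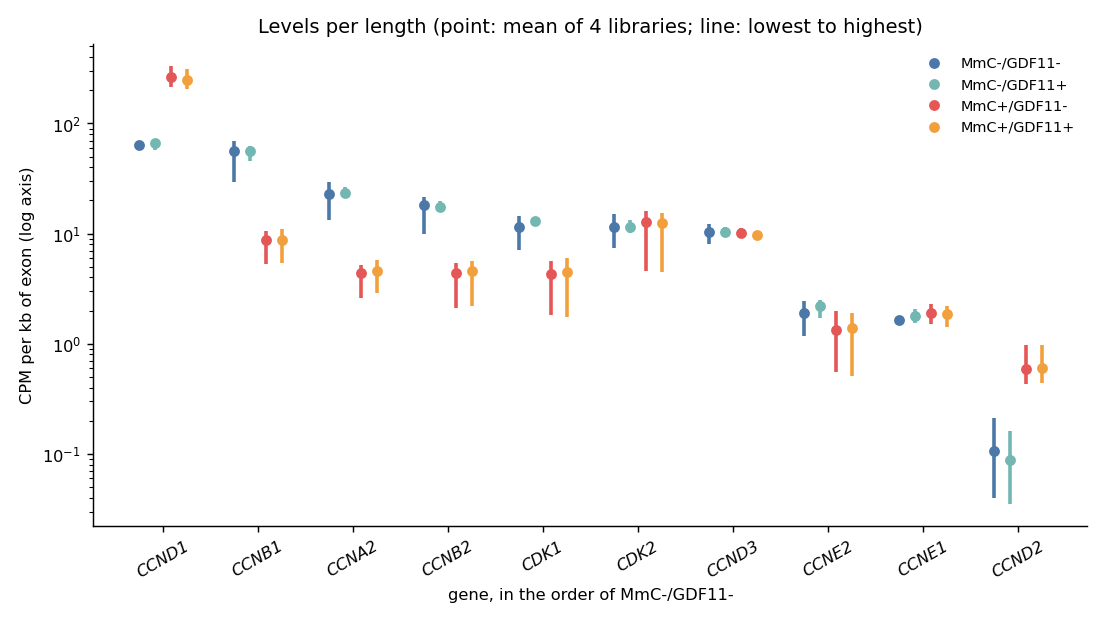
CPM per kilobase of exon (vertical axis, log scale) of each member in the 4 groups, with the mean of 4 libraries as a point and the lowest to highest library as a line. CCND1 is first and CCND2 last in every group, and the 4 genes CCNB1, CCNA2, CCNB2 and CDK1 drop below CDK2 and CCND3 in both MmC+ groups, in the means.

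The sum of the D-type genes over the sum of CCNA2, CCNB1 and CCNB2, per kilobase, was 1.30, 0.645, 0.718 and 0.671 in MmC-/GDF11- and 0.950, 0.795, 0.740 and 0.730 in MmC-/GDF11+. It was 34.6, 13.3, 12.2 and 11.8 in MmC+/GDF11- and 31.2, 11.7, 10.7 and 11.9 in MmC+/GDF11+. Replicate 1 had the highest ratio of every group, and the arms lay far apart with or without it. The means were 0.833 ± 0.312, 0.804 ± 0.101, 18.0 ± 11.1 and 16.4 ± 9.88 (SD, n = 4) in the same order of groups, and 0.678, 0.755, 12.5 and 11.5 without replicate 1. These ratios restate the changes of the same genes and were given no test.

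Within the D-type sum, CCND1 made up 85.8 ± 1.84% in MmC-/GDF11- and 96.0 ± 0.651% in MmC+/GDF11-, while CCND3 went from 14.1 ± 1.93% to 3.81 ± 0.697%. The E-type sum was 3.55 ± 0.612 CPM per kilobase in MmC-/GDF11- and 3.27 ± 0.280 in MmC+/GDF11-. The ratio of CDK2 to CDK1 was 1.04, 1.07, 0.857 and 1.04 in MmC-/GDF11- and 2.53, 3.45, 2.88 and 2.75 in MmC+/GDF11-. It was 0.803, 0.940, 0.771 and 0.972 in MmC-/GDF11+ and 2.55, 2.80, 2.51 and 3.04 in MmC+/GDF11+. Replicate 1 lay within the range of the other 3 libraries in 3 groups and below it in MmC+/GDF11-.

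**Figure D5:**
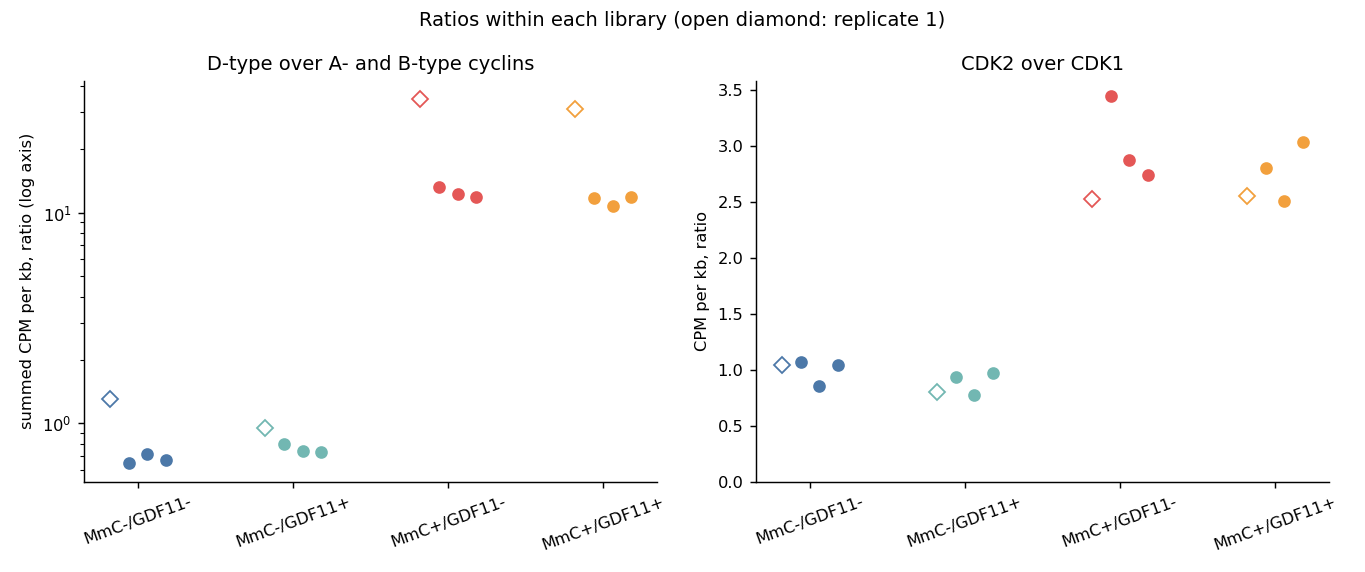
Ratios of CPM per kilobase within each library by group, with an open diamond for replicate 1: the summed D-type over the summed A- and B-type cyclins on the left (log axis) and CDK2 over CDK1 on the right (linear axis from 0). All MmC+ libraries lie above all MmC- libraries in both panels.

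A further question was what GDF11 did. In young MSCs none of the 10 members passed, none had an unadjusted p under 0.05 by edgeR, and 0% of all genes were called. The members' log2 fold changes lay between -0.24 for CCND2 and 0.21 for CCNE2, 6 above and 4 below 0. The lowest unadjusted p of a member was 0.442 by edgeR. Without replicate 1 in all groups it was 0.0465 by edgeR, with 1 member under 0.05 and 0 genes called. With all libraries, 226 of the 19103 genes had an unadjusted p under 0.05 by edgeR, and 551 with the replicate number as a block. Both are smaller shares than the 0.05 due if no gene changed. DESeq2 called 1 gene and limma-voom 0, and the libraries did not overlap in 0.89% of genes, with no member among them. In senescent MSCs the members lay between -0.09 for CCND1 and 0.09 for CCNA2, again with 0 called, 0% of all genes called, and no unadjusted p under 0.05 among the members. Over all 19103 genes 96 had an unadjusted p under 0.05 by edgeR, and 145 with the block, again smaller shares than 0.05. DESeq2 and limma-voom called 0, and 0.503% of genes did not overlap.

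Same-numbered young libraries differed among themselves. For CDK1 the log2 ratio of GDF11 to no GDF11 was 0.93, 0.14, -0.06 and -0.07 in replicates 1 to 4, and for CCNA2 0.81, -0.11, -0.25 and -0.13. Only the libraries of replicate 1 had a high ratio, where the MmC-/GDF11- library was the low one. In senescent MSCs the ratios were -0.04, 0.15, 0.22 and -0.14 for CDK1 and 0.15, 0.02, 0.22 and -0.03 for CCNA2.

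The intervals say what changes the fit without a term for replicate number leaves possible. Spread that same-numbered libraries share is counted in their width. For CCNB1 the 95% interval of the log2 fold change for GDF11 was -0.59 to 0.59 in young and -0.58 to 0.62 in senescent MSCs, and for CCND1 -0.24 to 0.40 and -0.41 to 0.24. CCND3 had the narrowest, -0.26 to 0.25 and -0.30 to 0.20, and CCND2 the widest, -1.35 to 0.87 and -0.99 to 1.02. A GDF11 effect the size of the MmC effect on CCND1 or CCNB1 lies outside these intervals, and changes inside them remain possible under that fit. For CCND2 in senescent MSCs the CPM was 7.82, 3.95, 3.75 and 3.43 without and 7.86, 4.27, 3.49 and 3.64 with GDF11. Libraries of the same number thus lay close together there. Intervals from the fit with a replicate block are not given here. The difference of the MmC effect with and without GDF11 (the interaction) was called for no member and 0% of all genes by edgeR. Of 19103 genes, 172 had an unadjusted p under 0.05 by edgeR, again a smaller share than 0.05, and none was a member. DESeq2 and limma-voom made 0 calls. The interaction of the members ranged from -0.18 for CCNE1 to 0.26 for CCND2. These comparisons share libraries with those for MmC.

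Other genes of the machinery were counted in 8 lists, each read against the share of all genes called. That share went from 45.3% without and 46.7% with GDF11 to 51.7% and 52.6% when replicate 1 was left out and to 57.9% and 59.0% when the replicate number was a block. Of 15 tested other cyclins and CDKs of the cell cycle, 3 were higher and 4 lower after MmC without GDF11, and with GDF11 3 were higher and 4 lower (median log2 fold change -0.03 without and -0.04 with GDF11, against -0.01 over all genes in both). The share called was 46.7% without and 46.7% with GDF11, against 45.3% and 46.7% of all genes, so the count was near that of all genes. CDK4, partner of the D-type cyclins, fell, at -0.73 ± 0.11 on the log2 scale, from 178 ± 28.5 to 107 ± 9.82 CPM (edgeR adjusted p = 8.19e-05), while CDK6 did not pass (0.27 ± 0.29, adjusted p = 0.479). CCNF, for cyclin F of the G2 phase, was lowest at -2.06, with CDK15 at -1.42, and CDK18 at 1.24 and CCNO, for a cyclin known from multiciliated cells, at 1.12 rose most. The list had 5 higher and 5 lower without GDF11 and 5 higher and 4 lower with it when replicate 1 was left out, and 4 higher and 6 lower without GDF11 and 4 higher and 5 lower with it when the replicate number was a block.

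Of 9 tested CDK activators and subunits, 0 were higher and 3 lower without GDF11 and 0 were higher and 5 lower with it (median log2 fold change -0.22 without and -0.27 with GDF11). The share called was 33.3% without and 55.6% with GDF11, against 45.3% and 46.7% of all genes. The phosphatase genes CDC25C, at -1.79 ± 0.41, and CDC25B, at -1.64 ± 0.20, whose products activate CDK1, were the lowest (edgeR adjusted p = 0.00244 and 9.52e-06). CDC25A, which acts on CDK2 in G1 and S, did not pass at 0.48 ± 0.35 (adjusted p = 0.282). In MmC+/GDF11- its lowest library had 4.63 CPM against a median of 11.1, and the median in MmC-/GDF11- was 7.26. The counts were 1 higher and 4 lower without GDF11 and 1 higher and 4 lower with it when replicate 1 was left out, and 0 higher and 5 lower without GDF11 and 0 higher and 5 lower with it when the replicate number was a block. CDK7, of the CDK-activating kinase, named after its values were seen, had only 0.509 ± 0.114 CPM in MmC-/GDF11-, and 96.9% of its exonic 31-base words also occur on alternate contigs, whose part in the low count was not tested.

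Of 9 tested CDK inhibitors and inhibitory kinases, 2 were higher and 4 lower without and 2 were higher and 3 lower with GDF11 (median log2 fold change -0.37 without and -0.30 with GDF11). Of the list, the share called was 66.7% without and 55.6% with GDF11, against 45.3% and 46.7% of all genes. CDKN1A, for the p53 target p21 that binds cyclin-CDK complexes, went from 226 ± 70.6 to 1507 ± 395 CPM (log2 fold change 2.74 ± 0.30, edgeR adjusted p = 3.89e-06). CDKN2B, for the CDK4 and CDK6 inhibitor p15, rose at 0.85 ± 0.14. CDKN2C, for p18 of the same family, fell at -2.05 ± 0.10, CDKN3, for a phosphatase that acts on CDKs, at -1.49 ± 0.37 and CDKN1B, for p27, at -0.58 ± 0.09. CDKN2A, whose p16 product is a common senescence marker, had 0.905 ± 0.224 and 1.06 ± 0.294 CPM and did not pass (0.23 ± 0.27, adjusted p = 0.516). The list therefore held members of opposite direction. Its counts were 2 higher and 6 lower without GDF11 and 2 higher and 5 lower with it when replicate 1 was left out, and 2 higher and 5 lower without GDF11 and 2 higher and 6 lower with it when the replicate number was a block.

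Of 19 genes of cyclin degradation, 1 was higher and 10 lower without GDF11 and 2 were higher and 11 lower with it (median log2 fold change -0.27 without and -0.31 with GDF11). Called genes made up 57.9% without and 68.4% with GDF11, against 45.3% and 46.7% of all genes, and 22.4% and 23.3% of all genes were lower. CDC20, the activator of the anaphase-promoting complex that marks B-type cyclins for destruction, fell at -2.81 ± 0.40 and UBE2C, its ubiquitin-conjugating enzyme, at -1.95 ± 0.37 (edgeR adjusted p = 5.28e-05 and 0.000556). FBXW7, the receptor that marks cyclin E, rose at 0.41 ± 0.12 (adjusted p = 0.0117). Of the exonic words of CDC20, 20.9% occur elsewhere in the genome, so its counts are less certain. Counts of the list were 1 higher and 11 lower without GDF11 and 1 higher and 12 lower with it when replicate 1 was left out, and 2 higher and 12 lower without GDF11 and 3 higher and 12 lower with it when the replicate number was a block.

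Of 13 pocket proteins and E2F factors, 1 was higher and 3 lower in both comparisons (median log2 fold change 0.12 without and 0.11 with GDF11). The called share of the list was 30.8% without and 30.8% with GDF11, against 45.3% and 46.7% of all genes. E2F7, a repressor among the E2F factors, rose at 0.83 ± 0.19, and RBL1, for the pocket protein p107, fell at -0.86 ± 0.22 and TFDP1, the partner of E2F factors, at -0.60 ± 0.11 (edgeR adjusted p = 0.00234, 0.00526 and 0.000291). E2F1 did not pass (0.16 ± 0.37, adjusted p = 0.742). For these genes the counts were 3 higher and 4 lower without GDF11 and 3 higher and 3 lower with it when replicate 1 was left out, and 2 higher and 5 lower without GDF11 and 1 higher and 5 lower with it when the replicate number was a block. Of the exonic words of TFDP1, 25.6% occur elsewhere in the genome.

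Of 10 genes of the DREAM and B-MYB-FOXM1 complexes and NF-Y, 0 were higher and 4 lower in both comparisons (median log2 fold change -0.28 without and -0.21 with GDF11). Among its genes the share called was 40% without and 40% with GDF11, against 45.3% and 46.7% of all genes. FOXM1, the mitotic gene activator, went from 156 ± 49.6 to 45.4 ± 16.9 CPM (-1.78 ± 0.34, edgeR adjusted p = 0.000622), and MYBL2, for B-MYB, fell, at -1.18 ± 0.35 (adjusted p = 0.0137). The complexes' genes gave 1 higher and 6 lower without GDF11 and 2 higher and 4 lower with it when replicate 1 was left out, and 1 higher and 6 lower without GDF11 and 1 higher and 6 lower with it when the replicate number was a block.

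Of 15 transcription-associated cyclins and CDKs, 2 were higher and 2 lower without GDF11 and 2 were higher and 3 lower with it. The median log2 fold change was 0.07 without and 0.07 with GDF11. Genes called made up 26.7% without and 33.3% with GDF11, against 45.3% and 46.7% of all genes. These genes gave 2 higher and 2 lower without GDF11 and 2 higher and 3 lower with it when replicate 1 was left out, and 5 higher and 3 lower without GDF11 and 5 higher and 3 lower with it when the replicate number was a block. CCNT1, for the partner of CDK9, at 0.75 and CCNK, for that of CDK12 and CDK13, at 0.35 rose, and CDK10 at -0.76 and CCNC, for a cyclin of the Mediator complex, at -0.49 fell. Of 10 genes known as inducers of cyclin D, WWTR1, for the co-activator TAZ, alone passed, at 0.28 ± 0.10 without GDF11 (edgeR adjusted p = 0.0357), and the list had a median log2 fold change 0.02 without and 0.12 with GDF11. Its share called was 10% without and 10% with GDF11, against 45.3% and 46.7% of all genes, and 1 gene was higher and 0 lower in each of the other settings as well. None of the tested genes of the 8 lists passed for GDF11 by edgeR in young or senescent MSCs, nor did limma-voom call any gene there. Before edgeR's adjustment 1 of them had a p under 0.05, CDK7 in senescent MSCs, with its few counts, at -0.89 ± 0.41 (unadjusted p = 0.0423).

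The genes most like 3 of the members were sought by correlation of log2 CPM after subtracting each group's mean, over 16 libraries and 11881 genes. Nearest to CCNB1 were GINS2 (0.99), CDC20 (0.98), AURKA (0.98), SUV39H1 (0.98) and MCM5 (0.98), of which GINS2 and MCM5 encode parts of the replicative helicase and AURKA a mitotic kinase. Among the 5 nearest to CCND1 were EXTL3 (0.99), CAPN2 (0.96), DYSF (0.96) and CCDC85C (0.96). Nearest to CCND2 were DAAM1 (0.96), GABPB2 (0.96), RNF130 (0.96), ENSG00000261888 (0.95) and WNT2 (0.95). The 16 libraries share the deviation of replicate 1, and without that number 1 of the 5 remained for each member, CDC20 for CCNB1, EXTL3 for CCND1 and WNT2 for CCND2. The 6 correlations among CCNA2, CCNB1, CCNB2 and CDK1 lay between 0.86 and 0.96 over 16 libraries and between -0.07 and 0.81 over the 12 libraries without replicate 1.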

How the data were processed

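Poly(A) RNA of ASC52telo cells was sequenced in 16 libraries, grouped by the sample labels. The authors aligned reads to GRCh38/hg38 with HISAT2 2.2.1, counted them on GENCODE V38 genes with featureCounts 2.0.1 and deposited raw counts per gene. The strand setting, the counting of pairs and of reads with several alignments are not given in the sources used here, and the authors name batch effects as a limit without saying which libraries they touch.

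Counts were tested here in R 4.3.3 with edgeR 4.0.16 (filterByExpr, minimum count 10, minimum total 15; TMM; robust quasi-likelihood fit of 16 libraries, 1 mean per group) and Benjamini-Hochberg adjustment at 0.05 over 19103 genes. The standard error was derived as the absolute log2 fold change over the square root of the test's F statistic. Intervals of 95% used this standard error and 12 degrees of freedom, and are approximate. The p-values measure the spread between these libraries of 1 cell line. CPM per kilobase used exon lengths of GENCODE 44, which also gave symbols, and 186 identifiers had no match. The script was tested on simulated counts with 200 changed genes. Alternatives were other scalings and filters, limma-voom (limma 3.58.1), DESeq2 1.42.0, a replicate block, and libraries left out. Leaving replicate 1 out of ratios and correlations, and the CTTGAA and TTTAAA search, were added after seeing the data.

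Same-numbered libraries were checked for deviating together from their group means. The lowest correlation of a number's pair, across genes, was 0.113 for the MmC comparison in cells lacking GDF11 and 0.448 for the GDF11 comparison in senescent MSCs, and these numbers were taken to pair libraries. It was 0.0293 for MmC in cells given GDF11 and 0.0982 for GDF11 in young MSCs, below the cut of 0.1, and these were not taken as paired. All correlations were positive. In replicates 1 to 4 they were 0.311, 0.160, 0.0293 and 0.266 for MmC in cells given GDF11. For GDF11 in young MSCs they were 0.504, 0.264, 0.0982 and 0.502. Replicate 3 alone thus put both below the cut, so the division is a weak one.

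The members and lists were chosen with earlier results of these data known. From each list, the 2 highest and 2 lowest genes past the threshold for MmC without GDF11 were named, plus CDK4, CDK6, CDKN1A, CDKN1B, CDKN2A, CDC25A, CDC25B, CDC25C, FOXM1, MYBL2 and E2F1, and the 5 genes most like CCNB1, CCND1 and CCND2, with a mean log2 CPM of at least 1. Of these, 1 gene is not reported here.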

Additional observations from a re-analysis of the deposited data

Results flagged for a closer look

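The 4 libraries of a group were compared for each member, and in 6 of 40 groups the highest or lowest library stood apart from the other 3 by more than Dixon's 95% critical value for the gap over the range. The 40 groups share libraries and hold members that vary together, so their count cannot be set against a chance rate for independent groups. Of the 6 cases, 5 fell on replicate 1. CDK2 was low in replicate 1 of MmC+/GDF11-, at 17.8 CPM against 58.3 to 62.6 in the other 3, and of MmC+/GDF11+, at 17.5 against 56.5 to 60.1. CCNB2 was low in replicate 1 of MmC-/GDF11-, at 27.3 against 53.9 to 58.6, and of MmC+/GDF11-, at 5.78 against 14.0 to 14.8. CCND2 was high in replicate 1 of MmC+/GDF11-, at 7.82 against 3.43 to 3.95. CCND3 was high in replicate 2 of MmC+/GDF11-, at 65.4 against 55.2 to 56.7. The reason was not tested.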

How the results depend on the processing

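In both MmC comparisons CCND1, CCND2, CCNA2, CCNB1, CCNB2 and CDK1 kept direction and call under all 25 alternatives. Of these, 16 left out a single library, in part from groups not compared. Of the 4 members that did not pass, CCNE2 with GDF11 passed with the replicate block (-0.83, adjusted p = 0.0313) and CDK2 with GDF11 without replicate 1 (0.38, adjusted p = 0.0138). The sign of changes that did not pass turned for CDK2 with GDF11 (-0.049 with the block, -0.015 by limma-voom) and for CCND3 without GDF11 (0.0073 with at least 10 counts in every library). With single libraries left out CCND3 without GDF11 ran from -0.13 to 0.067, above 0 without MmC+/GDF11- replicate 1 and without MmC-/GDF11- replicates 2 or 4. CCNE1 with GDF11 ran from -0.034 to 0.17, below 0 without MmC+/GDF11+ replicate 1 and without MmC-/GDF11+ replicate 3. The cause was not tested. In the 2 comparisons taken as paired, the block changed no call of a member. For GDF11 and the interaction no member was called under any alternative. Some extreme log2 fold changes of a member moved by more than their standard error in the main fit. In senescent MSCs they moved to -0.32 and 0.38 without MmC+/GDF11- replicate 1 and to -0.31 without MmC+/GDF11+ replicate 1. That of the interaction moved to -0.43 without MmC+/GDF11- replicate 1. CCND2, whose standard error is large, had the widest range with single libraries left out. It ran from -0.32 to 0.71 for the interaction and from -0.69 to 0.34 for GDF11 in young MSCs. The ratio of D-type to A- and B-type cyclins was 1.59, 1.53, 33.4 and 30.4 (in the group order used above) from CPM in place of CPM per kilobase, since the D-type genes are longer. Of the 5 genes most like CCNB1, CCND1 and CCND2, 1 each remained without replicate 1. CCND2, with as few as 25 reads in a library, is the member that depth limits most.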
